A study of Mus musculus with 10 samples.

Results

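The genes described here carry the mouse symbol Zfp followed by a number, the systematic name for zinc finger proteins. They were chosen by that symbol and by mean signal (a mean taken on the log2 scale). Of 22626 probe sets on the array (a probe set is a group of short oligonucleotides that together read 1 transcript), 227 were annotated to a single Zfp gene, for 155 genes in all, after Zfp36 and Zfp644 had been left out. A probe set was kept when its mean log2(signal + 16) over all 10 arrays lay above the 40th percentile, at 6.82, a signal of about 96.7. This kept 136 Zfp probe sets of 103 genes, out of 13575 probe sets of all kinds. The remaining 91 Zfp probe sets were too dim, and 52 Zfp genes had none above the threshold. Just inside lay Zfp101 (1425831_at, mean signal 98.9) and Zfp428 (1424490_at, 98.3), and just outside lay Zfp959 (1425240_at, 95.7) and Zfp84 (1425210_s_at, 94.2). In 16 of the 136 the mean of at least 1 group lay under the threshold, so these could have been kept through the groups in which they were high.

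Most Zfp proteins hold C2H2 zinc fingers, small folds built around a zinc ion that read DNA bases. Many also hold a KRAB domain, which recruits the corepressor Trim28 and, through it, the histone H3 lysine 9 methyltransferase Setdb1 and HP1 proteins (encoded by Cbx1, Cbx3 and Cbx5). Others have no KRAB domain and activate genes, bind RNA or act outside transcription. G9a, encoded by Ehmt2, is another H3 lysine 9 methyltransferase, which methylates itself as well as histones and works in a complex with the zinc finger protein Wiz.

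RNA came from mouse embryonic fibroblasts, which are connective tissue cells cultured from embryos, and was hybridised to 10 Affymetrix arrays in 5 groups of 2. In 4 groups the cells' own G9a had been deleted. The delta cells had then been given an empty vector, the WT cells the wild-type protein with a FLAG tag, the K165A cells FLAG-G9a carrying that substitution, and the H1093K cells FLAG-G9a carrying a substitution that the labels call catalytic. The fifth pair is titled only as deleted. The sources used here do not say what these last cells carried, whether a group was 1 clone, or whether its arrays stem from separate cultures. The spread behind each p-value may thus be technical.

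Ehmt2 checked the labels. Its measured probe set (1460692_at) read 473 and 415 in delta, 676 and 620.4 in WT, 704 and 725 in K165A, 461 and 494 in H1093K, and 1678 and 1750 on the arrays labelled deleted. Against delta it was higher in WT (log2 difference 0.53, adjusted p = 0.00474 by limma over all probe sets, as for every adjusted p here) and in K165A (0.67, adjusted p = 0.00128), but not past the threshold in H1093K (0.10, adjusted p = 0.737). It was highest on the arrays labelled deleted (1.91, adjusted p = 2.98e-07), which goes against that label. A dimmer Ehmt2 probe set (1426888_at) lay below the level threshold and was not tested. It read 7.13 and 36.5 in delta, 40.9 and 106 in WT, and 90.4 and 178 in K165A. In H1093K it read 116 and 55.7, above both delta arrays and overlapping WT, and on the arrays labelled deleted 162 and 247. The sources used here do not say whether the probes lie inside the deleted stretch of the gene, and the signal in delta is no measure of intact G9a.

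The median signal of an array lay between 181.1 and 199.6, and the 2 arrays of a group correlated at 0.984 to 0.989 over all probe sets tested and at 0.967 to 0.982 over the Zfp probe sets. All 8 fibroblast markers were above the threshold. Of 7 epithelial markers, Krt8, Krt18, Krt19 and Krt7 were above it, while Cdh1, Epcam and Dsp were below. The summed signal of the 7 moved with the groups, at 3791 to 4064 in delta, 1080 to 1187 in WT, 965 to 1081 in K165A, 2624 to 2818 in H1093K and 4507 to 4587 on the arrays labelled deleted. The markers did not move together: Krt7 had a mean of 2609 in delta, 338 in WT and 98 on the arrays labelled deleted, Krt8 had 129, 133 and 1603, Krt18 had 568, 170.2 and 2071, and Cdh1 had 106, 171.5 and 24. Their part in the Zfp differences below was not tested. In bulk RNA, fewer cells of a type and less RNA per cell cannot be told apart. Macrophage markers had 3 of 6 above the threshold (summed signal 455 to 595 over all arrays, with Ptprc, Adgre1 and Itgam below), endothelial markers 1 of 5 and skeletal muscle markers 0 of 4.

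The Zfp transcripts were dim as a group. Their median mean signal was 260.2, against 505.5 for all probe sets tested, and these levels are a description, since mean signal was part of the choice. Mean signals ran from 98.3 to 3172, with 51 probe sets under 200, 33 over 500 and 7 over 1000. Signals of different probe sets depend on their probes, so the order of brightness is not an order of transcript number.

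The brightest probe sets read Zfp622, Zfp207, Zfp91, Zfp281 and Zfp106. Zfp622, a factor that helps large ribosomal subunits mature in the cytoplasm, had a mean signal of 3172 (1438000_x_at). Zfp207, known as BuGZ and active at the mitotic spindle, had 1858 (1423545_a_at). Zfp91, an E3 ubiquitin ligase, had 1468 (1429615_at), Zfp281, which binds GC-rich DNA, had 1409.7 (1452045_at), and Zfp106, an RNA-binding protein needed by motor neurons and muscle, had 1192 (1425332_at). At the other end lay Zfp428 (98.3), Zfp101 (98.9), Zfp82 (99.2), Zfp329 (99.3) and Zfp84 (1425209_at, 103.8). Brightness set the precision: the median standard error of a log2 difference between 2 groups was 0.187 for probe sets under 200, 0.133 from 200 to 500 and 0.113 over 500.

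**Figure D1:**
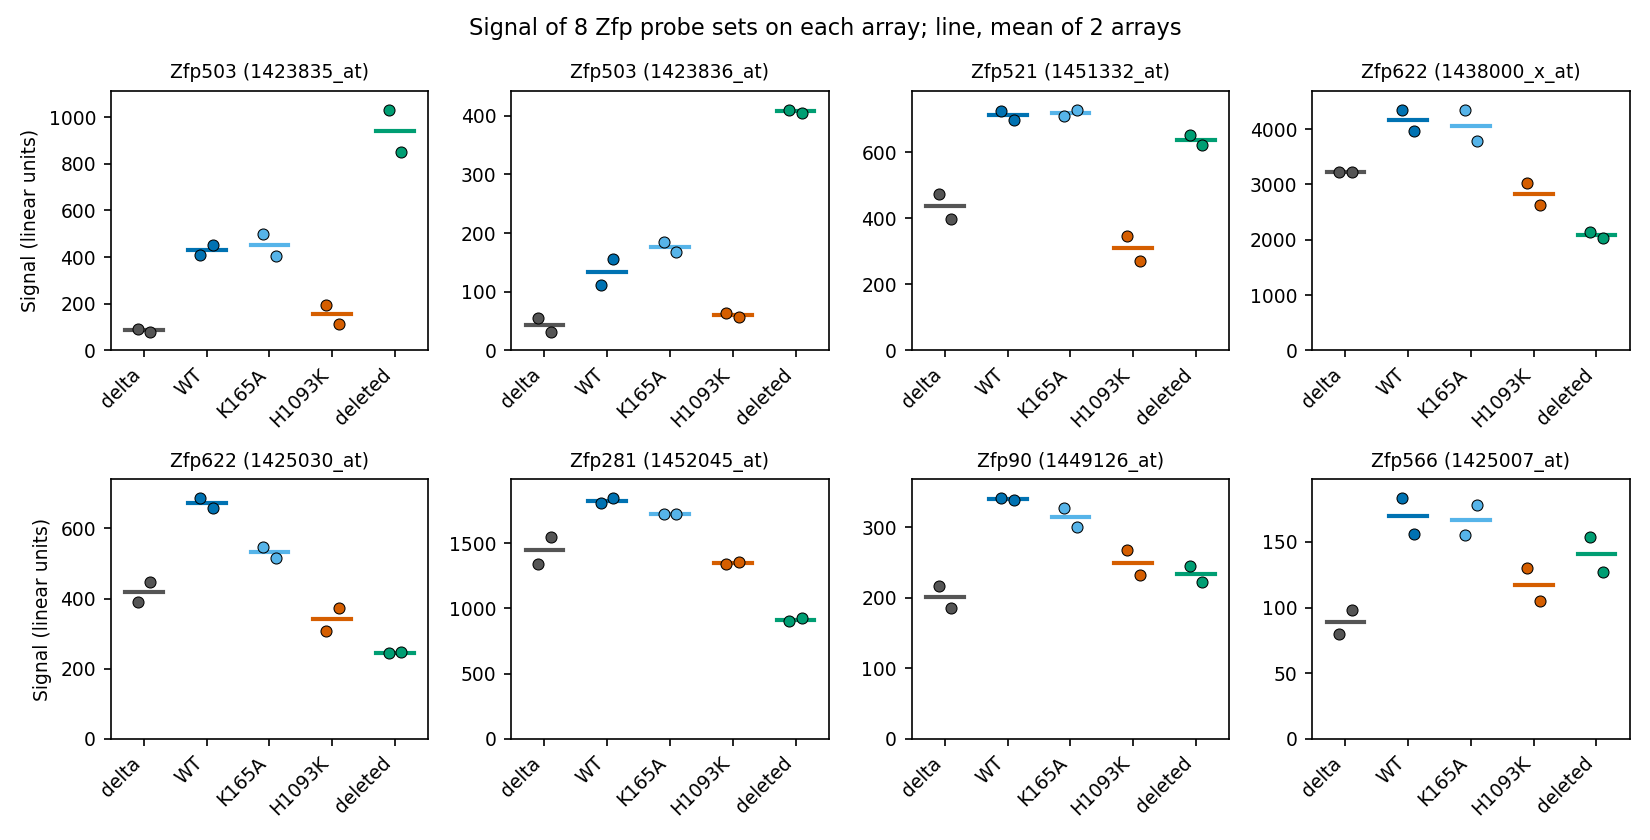
Signal (linear units, y axis) of 8 Zfp probe sets in the 5 groups (x axis); points are single arrays and lines are means of 2 arrays. Zfp503, Zfp521, Zfp90 and Zfp566 lie higher in WT and K165A than in delta, and Zfp622 and Zfp281 are lowest on the arrays labelled deleted.

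The first comparison asks what wild-type G9a changed in cells that lacked it. Zfp503, Zfp566, Zfp90, Zfp521 and Zfp622 led 12 Zfp probe sets that were higher in WT than in delta, and Zfp106 was the single one lower. The 13 calls, of 10 genes, were 9.56% of the 136, where 11.9% of all probe sets tested were called. Higher calls made up 8.82% of Zfp probe sets (5.42% of all) and lower calls 0.735% (6.48% of all). With the replicate number of the titles as a block, 24 Zfp probe sets passed, 20 higher and 4 lower, where 20.7% of all passed. The split between higher and lower is given as a description, with no test of the list. Counts with an array left out, here and below, are of Zfp probe sets only, without the share of all called. They do not show whether Zfp calls are less stable than others. Called probe sets were picked for naming from those whose 2 groups did not overlap, so that trait adds no support.

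Zfp503, also called Nolz1, is a transcriptional corepressor of the NET family with a single zinc finger. Its brighter probe set (1423835_at) read 92.9 and 80.8 in delta and 407 and 451 in WT. The other (1423836_at) read 55.5 and 31.6 in delta and 111 and 156 in WT. In both, the 2 WT arrays lay above the 2 delta arrays, and the first showed the largest rise of the 136, 4.33-fold on the log2(signal + 16) scale (log2 difference 2.12 ± 0.21 SE, 95% interval 1.65 to 2.58, adjusted p = 0.000152). The second rose 2.53-fold (1.34 ± 0.22 SE, adjusted p = 0.00386). Both calls held whichever array was left out. The delta means (86.9 and 43.6) lay under the level threshold, so both probe sets were kept through the groups in which they were high, and the folds understate the ratio of signals. The same holds for Zfp566 below, and these 3 calls are no support for a count of Zfp calls in WT or in K165A against delta.

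Zfp566 (1425007_at) read 79.8 and 98.5 in delta and 183 and 156 in WT, with no overlap. It rose 1.77-fold (0.82 ± 0.18 SE, adjusted p = 0.0182), a call lost without WT 1, WT 2 or delta 1 (adjusted p up to 0.128). Zfp90, a KRAB zinc finger protein, read 216 and 186 in delta and 341 and 339 in WT (1449126_at). The WT arrays again lay above both delta arrays, and the rise was 1.65-fold (0.72 ± 0.13 SE, adjusted p = 0.00654), reaching 0.0518 without delta 2.

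Zfp521 holds many zinc fingers, antagonises Ebf1 and restrains adipocyte differentiation. Its probe set (1451332_at) read 473 and 399 in delta and 727 and 697 in WT. The groups did not overlap, and the rise was 1.61-fold (0.69 ± 0.12 SE, adjusted p = 0.00613; 0.0522 without WT 1). Zfp622 was read by a pair of probe sets that moved the same way. The dimmer one (1425030_at) gave 391 and 447 in delta and 686 and 657 in WT, a 1.58-fold rise (0.66 ± 0.12 SE, adjusted p = 0.00565) that held whichever array was left out. The brighter one (1438000_x_at), whose suffix marks probes that may also read related transcripts, gave 3228 and 3234 in delta and 4351 and 3975 in WT (0.36 ± 0.10 SE, adjusted p = 0.0395, lost without any 1 of 6 arrays).

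The smaller rises lay under 1.5-fold. Zfp281, which restrains Nanog in embryonic stem cells, rose on both its probe sets, by 0.34 on 1452045_at (adjusted p = 0.022) and by 0.40 on 1426377_at (adjusted p = 0.0494). The first of these read 1341 and 1546 in delta and 1804 and 1843 in WT, without overlap. Zfp24, a SCAN-domain protein needed for myelination, rose by 0.51 on 1426895_at (746 and 669 in delta, 913 and 1124 in WT, adjusted p = 0.0343), and its other 3 probe sets gave 0.21 to 0.46 and did not pass. Zfp110, a protein that binds the p75 neurotrophin receptor, rose by 0.51 on 1437236_a_at (214 and 198 in delta, 299 and 299 in WT, adjusted p = 0.0352). Its other measured probe sets did not pass. Of these, 1437237_x_at gave 0.40, and 1450998_at read 124 and 127 in delta and 188 and 170 in WT. Zfp106 fell by 0.50 on 1425331_at, from 408 and 431 in delta to 315 and 271 in WT (adjusted p = 0.0153), and its brightest probe set (1425332_at) read 1266 and 1301 against 1032 and 1105, a difference that did not pass as such but did with the replicate block (adjusted p = 0.0174). Its dimmest measured probe set (1425097_a_at) overlapped between the groups, at 208 and 178 in delta against 221 and 154 in WT (-0.06), and did not pass. Zfp292 was the remaining gene, named after its values were seen, with 0.36 on 1449515_at (adjusted p = 0.0436). Its other probe sets gave 0.07 to 0.41 and did not pass.

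Of these 13 calls, 3 held whichever array was left out, those of Zfp503 and of Zfp622 on 1425030_at. Leaving out an array moved the number of Zfp calls to between 6 (without WT 1, WT 2 or delta 1) and 15, with 7 without delta 2 and 8 without either array labelled deleted.

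Zfp503 and Zfp566 also passed in K165A against delta on the same probe sets. The RefSeq promoter table (GRCm38.p6) held both, and the 250 bases before each start are printed to show what the most changed Zfp gene and the runner-up have upstream. Capitals mark each CG pair, the site of DNA methylation in mammals. The Zfp503 stretch is chr14:21989602-21989851 and the Zfp566 stretch chr7:30090511-30090760, both on the minus strand.
Zfp503: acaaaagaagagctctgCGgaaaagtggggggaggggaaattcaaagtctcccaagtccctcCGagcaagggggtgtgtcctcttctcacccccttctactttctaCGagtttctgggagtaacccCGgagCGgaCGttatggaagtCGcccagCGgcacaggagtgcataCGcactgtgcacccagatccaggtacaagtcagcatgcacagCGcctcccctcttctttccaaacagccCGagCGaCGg
Zfp566: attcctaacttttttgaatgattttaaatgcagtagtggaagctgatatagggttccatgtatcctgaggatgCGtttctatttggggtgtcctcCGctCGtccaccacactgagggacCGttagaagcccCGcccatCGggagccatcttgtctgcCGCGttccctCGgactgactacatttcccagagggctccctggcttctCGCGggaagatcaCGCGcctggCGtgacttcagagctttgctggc
The Zfp503 stretch holds 13 CG pairs at 57.2% G and C, and the Zfp566 stretch 14 at 54.0%. In the same window, the 97 promoters listed for 79 of the 103 measured Zfp genes had a median of 14.0 CG pairs and 57.2% G and C, against 6.0 and 52.4% over all 32851 promoters. Motifs were searched on both strands. A GC box (GGGCGG) stood in 57.7% of the Zfp promoters and 32.7% of all, CCAAT in 45.4% and 33.8%, TATAAA in 9.28% and 12.4%, CACGTG in 7.22% and 6.02%, and TGACGTCA in 1.03% and 1.55%. These Zfp genes had passed the level filter, while the full promoter table was not limited by level. The part of level in these gaps was not tested. Among promoters of the Zfp genes called in WT or K165A against delta, 7 of 13 held a GC box. Zfp566 holds 1 GC box and Zfp503 none, which says only that these letters are not in this window.

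The second comparison asks whether G9a with K165A acted like the wild-type protein against the same delta arrays. Zfp503, Zfp521, Zfp212, Zfp566 and Zfp90 were among 11 Zfp probe sets higher in K165A, and Zfp185 was lower. The 12 calls, of 11 genes, were 8.82% of the 136, where 11.3% of all probe sets were called. Higher calls were 8.09% of Zfp probe sets (4.99% of all) and lower calls 0.735% (6.28% of all). The replicate block gave 22 Zfp calls, 20 higher and 2 lower, where 19.7% of all passed.

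Zfp503 read 499 and 407 in K165A on 1423835_at and 184 and 167 on 1423836_at, above every delta array. It was 4.54-fold higher on the first (2.18 ± 0.21 SE, adjusted p = 0.00013) and 3.28-fold on the second (1.71 ± 0.22 SE, adjusted p = 0.000894). Zfp521 read 709 and 729 (0.71 ± 0.12 SE, adjusted p = 0.00549). These calls, and that of Zfp212 (1451292_at; 540.2 and 606 in delta, 914 and 809.7 in K165A; 0.57 ± 0.10 SE, adjusted p = 0.0046), held whichever array was left out. Zfp566 read 156 and 179 (0.80 ± 0.18 SE, adjusted p = 0.0209) and Zfp90 read 328 and 301 (0.61 ± 0.13 SE, adjusted p = 0.0151). For all of these, no K165A array reached down to a delta array, which was a condition for naming them.

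The other rises were those of Zfp825 (1451654_x_at, possibly reading related genes; 144 and 111 in delta, 255 and 212 in K165A; 0.80, adjusted p = 0.0245), Zfp444 (1452376_at; 114 and 87.8 against 149 and 172; 0.60, adjusted p = 0.0445) and Zfp207 (1438714_at; 503 and 525 against 682 and 722; 0.44, adjusted p = 0.0349). Zfp292 (1419574_at, 0.51, adjusted p = 0.0227) and the SUMO ligase gene Zfp451 (1427208_at, 0.45, adjusted p = 0.0374) complete the list and were named after their values were seen. The Zfp292 probe set called in WT (1449515_at) gave 0.28 in K165A and did not pass. Zfp444 lost its call without any 1 of 9 arrays. Zfp207 was not uniform, since its other probe sets gave -0.13 (1423545_a_at) and -0.36 (1455092_at) and did not pass. Zfp185, a LIM-domain protein tied to actin and no classical zinc finger protein, read 222 and 241 in delta and 146 and 111 in K165A (1420944_at). It fell by 0.78 (adjusted p = 0.00911), a call lost without delta 2 or K165A 2 (adjusted p up to 0.0635).

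The number of Zfp calls ran from 6 (without K165A 1 or K165A 2) to 11 as arrays were left out, with 7 without delta 2. The WT and K165A comparisons share the delta arrays, so a delta array that stands apart moves both. Zfp503, Zfp521, Zfp566 and Zfp90 passed in each on the same probe sets, with the values given above.

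**Figure D2:**
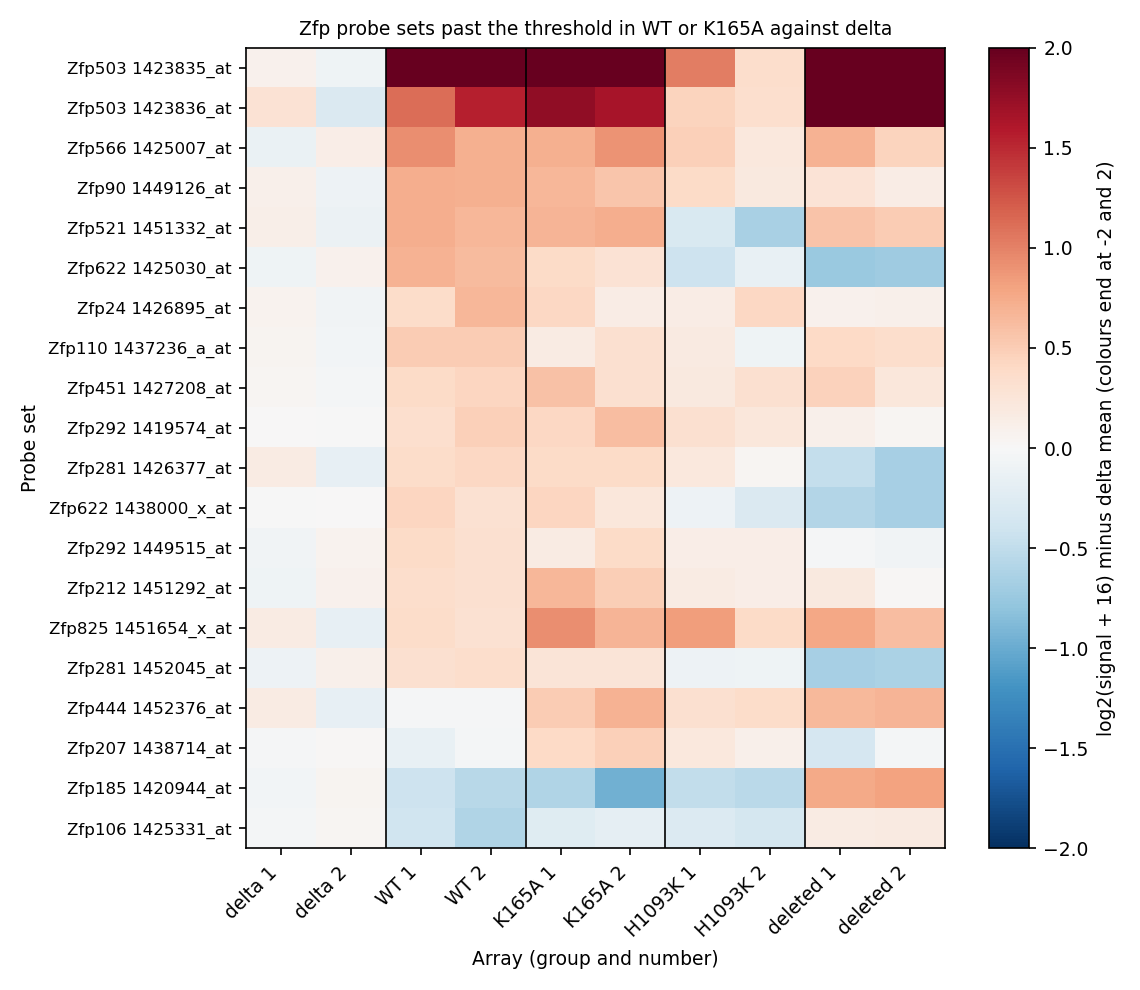
Signal on each array (columns) as log2(signal + 16) minus the mean of the delta arrays (colour) for the 20 Zfp probe sets (rows) called in WT or K165A against delta; colours end at -2 and 2. The rows are ordered by the WT difference, from Zfp503 at the top to Zfp106 at the bottom, and the H1093K columns are paler than the WT and K165A columns for Zfp503.

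The direct comparison of K165A with WT called no Zfp probe set, and 0% of all probe sets were called. At an unadjusted p under 0.05, limma found 8 Zfp probe sets (5.88%) and 429 of all (3.16%), and the replicate block also called none. The smallest p values were those of Zfp207 on 1438714_at, which read 461 and 499.9 in WT and 682 and 722 in K165A (0.53, adjusted p = 0.785), of Zfp444 (98.6 and 97.9 against 149 and 172, 0.62, adjusted p = 1.0) and of Zfp975 (1439295_x_at, 67.2 and 87.3 against 131 and 133, 0.68, adjusted p = 1.0). In these 3 the arrays did not overlap, but the differences did not pass the correction. For Zfp503 on 1423835_at the difference was 0.07, with a 95% interval of -0.40 to 0.54, and for Zfp521 it was 0.01, from -0.26 to 0.29. A p that misses the threshold does not show that the 2 proteins act alike.

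The catalytic mutant was compared with delta and with WT. Against delta, H1093K called 0 Zfp probe sets, where 0.818% of all were called, and 11 had an unadjusted p under 0.05 by limma (8.09%, against 11.8% of all). Zfp521 read 348 and 272 in H1093K and so lay under both delta arrays (-0.48, adjusted p = 0.133). Zfp503 read 193 and 115 on 1423835_at, above both (0.69, adjusted p = 0.211), and Zfp185 read 159.5 and 153, below both (-0.52, adjusted p = 0.189). With the replicate block 3 Zfp probe sets passed, where 3.47% of all did. They were Zfp503 on 1423835_at (adjusted p = 0.0446), Zfp521 (adjusted p = 0.0282) and Zfp825 on 1451654_x_at (0.60, adjusted p = 0.0428).

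Against WT, 8 Zfp probe sets of 6 genes were called and all 8 were lower in H1093K. They read Zfp503, Zfp521, Zfp622, Zfp358, Zfp532 and Zfp281, and made up 5.88% of the 136, where 8.03% of all probe sets were called and 3.98% were called lower. The replicate block called 16 Zfp probe sets, 12 lower and 4 higher, where 14.3% of all passed. Ehmt2 itself was lower in H1093K than in WT (-0.43, adjusted p = 0.0185), and its part in these differences was not tested.

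Zfp503 on 1423835_at, at 193 and 115 in H1093K against 407 and 451 in WT, was 2.69-fold lower (-1.43 ± 0.21 SE, adjusted p = 0.0021). Its second probe set, at 63.2 and 57.7 against 111 and 156, was 1.94-fold lower (-0.95 ± 0.22 SE, adjusted p = 0.0275; up to 0.168 without WT 2, H1093K 1 or H1093K 2). That probe set was under the level threshold in H1093K and in delta, and was kept through the other groups. Zfp521, at 348 and 272 against 727 and 697, was 2.25-fold lower (-1.17 ± 0.12 SE, adjusted p = 0.000277). For both genes the 2 H1093K arrays lay under the 2 WT arrays.

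Zfp622 followed on both probe sets. On 1425030_at it read 308 and 374 in H1093K against 686 and 657 in WT (-0.95 ± 0.12 SE, adjusted p = 0.000717), and on 1438000_x_at 3019 and 2636 against 4351 and 3975 (-0.56 ± 0.10 SE, adjusted p = 0.00618). Zfp281 read 1337 and 1355 against 1804 and 1843 on 1452045_at (-0.43 ± 0.08 SE, adjusted p = 0.00759), and its other probe set gave -0.27 and did not pass. In each of these the 2 H1093K arrays lay under the 2 WT arrays. The remaining calls were less stable to the choice of arrays. Zfp358 (1451011_at) read 202 and 172 against 299 and 269 (-0.57, adjusted p = 0.0414) and lost its call without any 1 of 8 arrays. Zfp532 (1435669_at) read 269 and 269 against 357 and 387 (-0.44, adjusted p = 0.0336) and lost it without any 1 of 6. Calls that held throughout were those of Zfp503 on 1423835_at, Zfp521 and Zfp622 on 1425030_at. The count fell to 4 without WT 2 or H1093K 1 and to 5 without WT 1 or H1093K 2.

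The arrays labelled deleted stood apart from the other 8 on the first principal component of all probe sets, and were compared with delta as their title allows. Zfp503, Zfp532 and Zfp185 were among 23 Zfp probe sets higher there, and Zfp672, Zfp612, Zfp622 and Zfp281 among 13 lower. The 36 calls, of 32 genes, were 26.5% of the 136, where 33% of all probe sets were called. Higher calls were 16.9% of Zfp probe sets (15.6% of all) and lower calls 9.56% (17.4% of all).

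Zfp503 was highest of all groups here. It read 1032 and 849.9 on 1423835_at, 9.28-fold over delta (3.21 ± 0.21 SE, adjusted p = 2.65e-06), and 410.2 and 405 on 1423836_at, 7.26-fold (2.86 ± 0.22 SE, adjusted p = 8.51e-06). Zfp532 read 643 and 595 against 335 and 297 in delta (0.94, adjusted p = 0.000121). Zfp185, which had fallen in K165A, read 399 and 415 against 222 and 241, a rise of 0.78 (adjusted p = 0.00325). These rises held whichever array was left out. Zfp428 (112 and 171 against 80.1 and 58.9; 0.86, adjusted p = 0.0241), Zfp825 (229.5 and 204; 0.70, adjusted p = 0.0178), Zfp444 (166 and 170.1; 0.66, adjusted p = 0.0117) and Zfp395 (1452336_at; 462 and 429.9 against 237 and 342; 0.62, adjusted p = 0.0129) also rose and lost their calls without 1 array or another.

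Zfp672 (1424261_at) fell furthest, from 441 and 435 in delta to 177 and 224 (2.11-fold, -1.07 ± 0.12 SE, adjusted p = 0.000124). Its WT, K165A and H1093K signals lay between 352 and 463, so the arrays labelled deleted lay under all 8 others. Zfp612 (1427104_at) fell from 171 and 155 to 78.1 and 80.2 (-0.91, adjusted p = 0.00262). Zfp622 and Zfp281 were lower than delta on both of their probe sets, which had been higher in WT than in delta. On 1425030_at Zfp622 read 244 and 248 (-0.73, adjusted p = 0.00108), on 1438000_x_at 2136 and 2041 (-0.63, adjusted p = 0.000873). On 1452045_at Zfp281 read 900.0 and 925 (-0.65, adjusted p = 0.000171) and on 1426377_at 637 and 560.2 (-0.57, adjusted p = 0.00353). For these genes the arrays labelled deleted lay under every other array. Zfp91 fell on 1426326_at (411 and 348 against 588 and 515; -0.52, adjusted p = 0.00656) and on 1429615_at (1035 and 1148 against 1429 and 1534; -0.44, adjusted p = 0.0154), and Zfp105 fell by 0.60 (1460252_s_at, which may read related transcripts; 86.9 and 70.9 against 112 and 144, adjusted p = 0.037).

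Of the 36 calls, 11 held whichever array was left out and the count ran from 16 (without deleted 1) to 35, with 21 without deleted 2, 22 without delta 1 and 23 without delta 2. In 8 of the 36, the mean of 1 of the 2 groups lay under the level threshold, so these probe sets were kept through groups in which they were high. Zfp428, with a mean signal of 69.5 in delta, is among them. These calls are no support for a count of Zfp calls on the arrays labelled deleted.

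**Figure D3:**
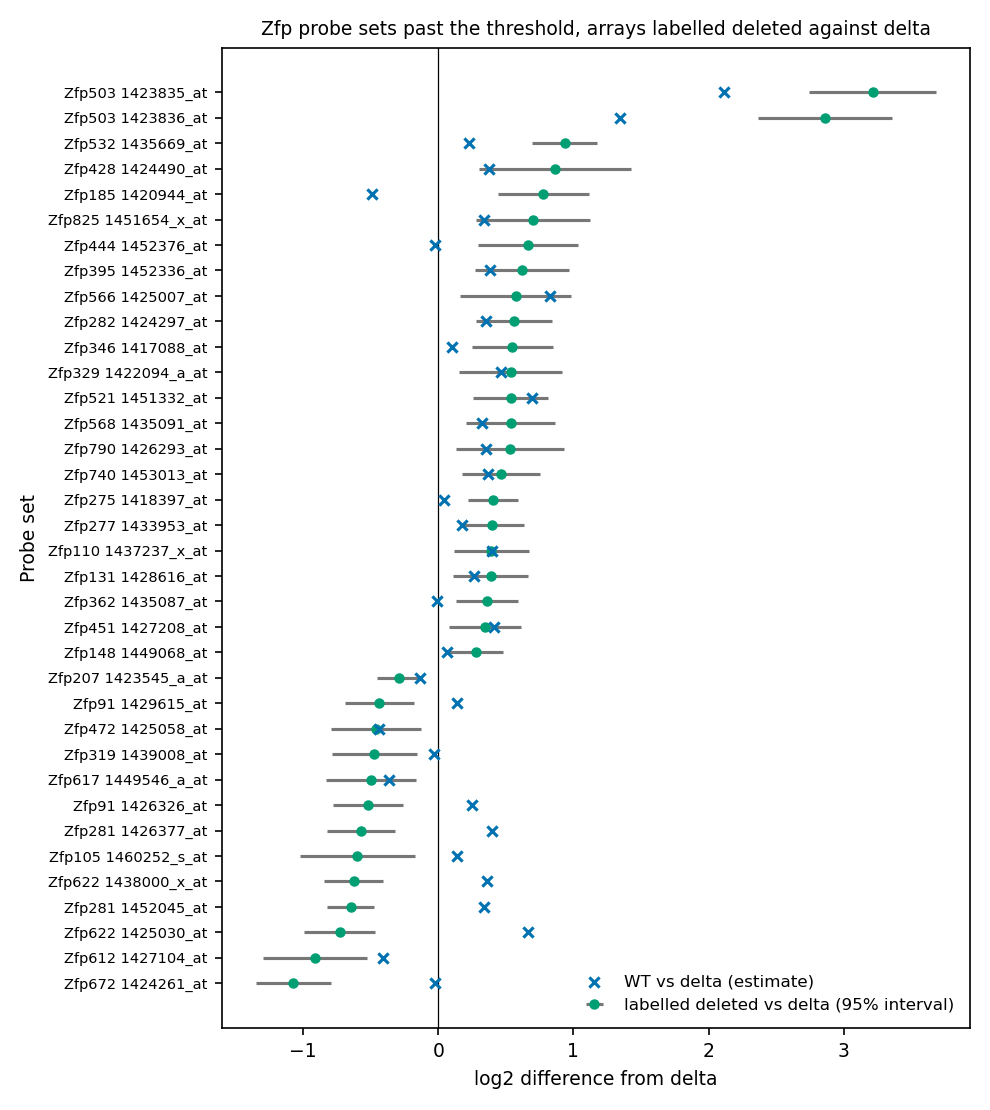
Log2 difference from delta (x axis) of the 36 Zfp probe sets (rows) called on the arrays labelled deleted, as points with 95% intervals, with the WT estimate for the same probe set as a cross. Zfp503 lies at 3.21 and 2.86, and for Zfp622 and Zfp281 the points lie below 0 while the crosses lie above it.

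Over all 136 Zfp probe sets the differences were mostly small. The median log2 difference from delta was 0.13 in WT (quartiles -0.03 and 0.34), 0.17 in K165A (-0.01 and 0.33), 0.05 in H1093K and 0.08 on the arrays labelled deleted, where the median of all probe sets tested lay at -0.00252, 0.00485, -0.0023 and -0.0131. H1093K minus WT had a Zfp median of -0.07 and an overall median of 0.01. Within the arrays numbered 1 and 2 the Zfp medians were 0.08 and 0.18 for WT, 0.11 and 0.19 for K165A, 0.07 and 0.04 for H1093K, and 0.08 and 0.08 on the arrays labelled deleted. The estimate was above 0 for 93 Zfp probe sets in WT (68.4%, against 49.5% of all), 100 in K165A (73.5%, against 51.0%), 82 in H1093K (60.3%, against 49.5%) and 84 on the arrays labelled deleted (61.8%, against 48.4%). These comparisons share the delta arrays, and the shares are descriptions. The median on the arrays labelled deleted was 0.15 without delta 1, 0.04 after quantile normalization and 0.04 with the filter at the 60th percentile. That of H1093K against delta was 0.01 without H1093K 1, and that of H1093K against WT was -0.03 without H1093K 2.

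**Figure D4:**
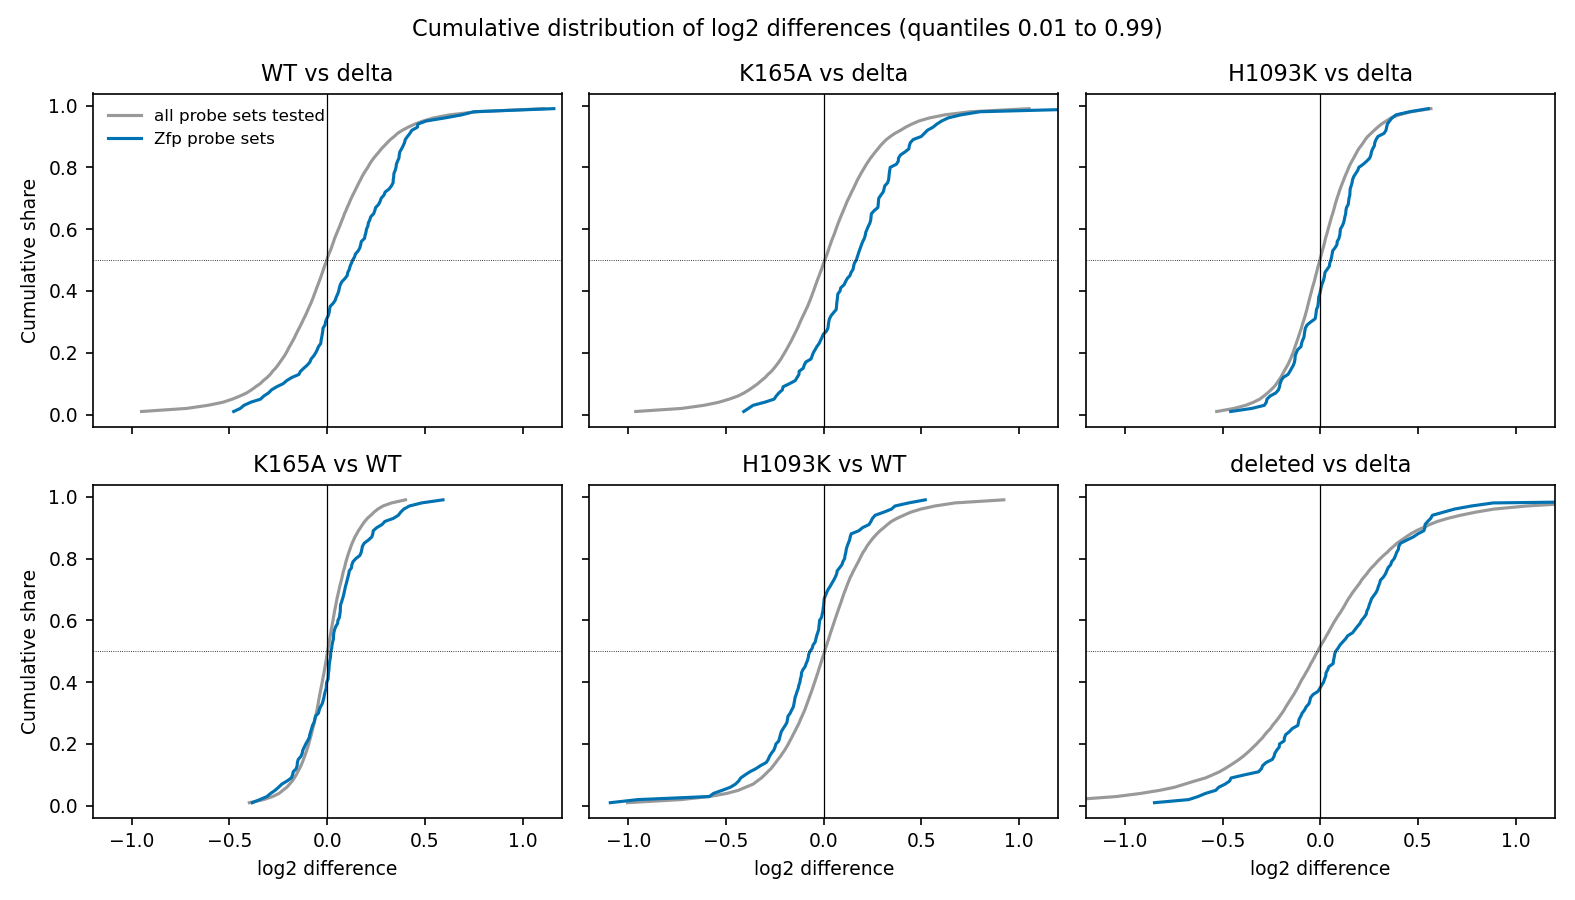
Cumulative share of probe sets (y axis, quantiles 0.01 to 0.99) against log2 difference (x axis) for the 136 Zfp probe sets and all 13575 tested, in 6 comparisons. The Zfp curve lies to the right of the overall curve in its middle part for WT and K165A against delta, at medians of 0.13 and 0.17, and to the left for H1093K against WT, at -0.07.

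Among the 4 groups of the design text, delta had the lowest mean in 67 Zfp probe sets (49.3%, against 29% of all) and K165A in 9 (6.62%, against 22.1%). K165A had the highest mean in 54 (39.7%, against 23.2%), WT in 44 and H1093K in 15. Zfp503, Zfp521, Zfp622, Zfp281 on 1452045_at, Zfp90, Zfp212, Zfp566, Zfp185 and Zfp207 on 1438714_at passed the F test across these groups, 11 probe sets of 9 genes (8.09%, where 11.6% of all passed). The replicate block raised this to 28, where 22.2% of all passed. Across all 5 groups 41 Zfp probe sets of 31 genes passed (30.1%, where 36.2% of all did), and 65 with the replicate block (51.9% of all). The arrays labelled deleted had the highest mean of 5 in 41 Zfp probe sets and the lowest in 44.

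Several genes were read more than once. Of the 103 genes, 24 had at least 2 probe sets above the threshold, and none had probe sets called in opposite directions in any comparison. All probe sets of a gene were called together for 3 genes in WT against delta, namely Zfp503, Zfp622 and Zfp281, and some but not all for the other 4 with a call. The estimates of a gene's probe sets differed in sign for 6 of the 24 genes in that comparison and for 12 in H1093K against WT.

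A list of 24 Zfp genes with a role known from the literature gave 15 with a probe set counted under the listed symbol. Of the 24, 11 had one above the threshold. The genes without one may still be read by the array under another annotation. Zfp57, which maintains DNA methylation at imprinted genes, read 177 and 263 in delta, 149 and 217 in WT, 168 and 236 in K165A, 199.7 and 192 in H1093K, and 149.8 and 281 on the arrays labelled deleted (1450929_at). The 5 groups overlapped, and no comparison passed (adjusted p 0.673 to 1.0). Zfp638, which promotes adipocyte differentiation, read 508 to 662 over all arrays on 1417791_a_at and passed no comparison, and neither did Zfp219 (199.5 to 303) or Zfp326 (538 to 706). Of 4 probe sets for Zfp148, a GC-rich binding relative of Zfp281, 1449068_at rose on the arrays labelled deleted (617 and 702 in delta, 824 and 778 there; 0.28, adjusted p = 0.042), and the other 3 were not called. Below the threshold lay Zfp42, the pluripotency marker Rex1 (4.31 to 20.4), Zfp423, a preadipocyte factor (0.687 to 2.5), and Zfp467 (41.1 to 147 on 1449510_at), which were not tested.

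Zfp genes often lie side by side. In RefSeq's gene order, 56 of the 155 Zfp genes on the array were next to another of them, in 21 runs of up to 6. Of the 38 Zfp genes called in any comparison, 10 had such a neighbour, against 32 of the 103 measured. Zfp566 lies in a run with Zfp568, Zfp14 and Zfp82. Zfp568 (1435091_at), named after its values were seen, rose on the arrays labelled deleted, as Zfp566 did (0.54, adjusted p = 0.0194, and 0.57, adjusted p = 0.0368), while in WT against delta it gave 0.32 (adjusted p = 0.203) and Zfp82 gave -0.03 (adjusted p = 0.965).

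Partners of KRAB proteins and of G9a, listed together with Ehmt2 itself, gave 36 probe sets of 19 genes. Ehmt2 counts among the higher ones in WT, in K165A and on the arrays labelled deleted. It had already served to check the labels, so its calls are no result about partners. In WT against delta 4 were higher and 0 lower, where 11.9% of all probe sets were called, reading Ehmt2, the deacetylase gene Hdac2 (0.41, adjusted p = 0.0122) and the HP1 gene Cbx1 (0.37 and 0.31, adjusted p = 0.0178 and 0.0431). In K165A 3 were higher (11.3% of all called), in H1093K 0 were called against delta (0.818% of all), and on the arrays labelled deleted 7 were higher and 2 lower (33% of all called), with the DNA methyltransferase gene Dnmt3a among the higher (0.64 and 0.91, adjusted p = 0.00095 and 0.00165). Dimmer probe sets for Dnmt3a differed less. Means were 153 in delta and 182 on the arrays labelled deleted for 1423066_at, and 131 and 171 for 1423065_at. The corepressor genes Trim28 (mean signal 2659) and Setdb1 (697) were called in none of the 6 comparisons.

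Other zinc finger families are given beside the same shares of all probe sets, 11.9% called in WT against delta (5.42% higher, 6.48% lower) and 33% on the arrays labelled deleted (15.6% higher, 17.4% lower). Among 30 probe sets of Zbtb, Zkscan, Zscan and like genes, 3 were higher and 0 lower in WT, with Zbtb20 at 0.53 and 0.49 and Zbtb1 at 0.41, and the median was 0.13. Among 28 probe sets of Klf and Sp genes, 7 were higher and 0 lower in WT, with Klf4 at 1.43 and Klf2 at 0.84, and on the arrays labelled deleted 2 were higher and 15 lower, at a median of -0.38. Among 9 of Gli, Zic, Egr, Snai and Ikzf genes, 3 were higher and 0 lower in WT. The hedgehog effector gene Gli2 differed between H1093K and WT by -1.85 (adjusted p = 5.62e-05), where Zfp503 differed by -1.43. The Gli2 mean in H1093K (64.7) lay under the level threshold, so its probe set was kept through other groups. Against delta Gli2 was lower in H1093K (-1.19, adjusted p = 0.0114), while Zfp503 on 1423835_at gave 0.69 and was not called.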

How the data were processed

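Total RNA was labelled by a 1-round Affymetrix protocol, per the labels' protocols. The deposited values are linear signal intensities, which the authors made with GCOS 1.4 (per the submitters' processing notes). Arrays shared nearly the same trimmed mean, so no scaling was added. The sources used here give no background or scaling options. Gene symbols came from the platform annotation and were checked against RefSeq (GRCm38.p6), and all 227 were current. Probe sets naming several genes were never named.

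Signals were analysed as log2(signal + 16), so folds of dim probe sets are understated. The level filter kept 13575 probe sets. In R 4.3.3, limma 3.58.1 (lmFit, eBayes with trend) estimated 1 mean per group from all 10 arrays. It had 5 residual and 4.73 prior degrees of freedom. The Benjamini-Hochberg threshold was 0.05 over all 13575. An exact two-sided permutation test of 2 against 2 cannot go below 0.333, so none is given. The fit was tested on simulated data. Arrays of 2 per group limit the precision.

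Samples were grouped by title. Same-numbered arrays deviated together in all 10 pairs of groups (r 0.234 to 0.527). The main tests took no account of this, and the number entered only as the block of an alternative fit. The sources used here do not say what the number marks. Blocked values stand beside the counts they move by over 1.5 times. The alternatives were pseudocounts of 4 and 64, no filter, a 60th percentile filter, quantile normalization, the block, and arrays left out.

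The members, the gene lists and the tests were chosen with earlier results of these data known. Named probe sets were, per comparison, up to 8 rises and 8 falls past the threshold without overlap, otherwise the 3 of smallest p. To these were added the 5 brightest and 5 dimmest, those at the filter's edge, genes with a known role, and up to 4 called members of each other list.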

Additional observations from a re-analysis of the deposited data

Results flagged for a closer look

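In 6 Zfp probe sets the response to H1093K differed from the response to wild-type G9a when the difference itself was tested by limma. These are the same tests as H1093K against WT in the report, limited to probe sets that also passed in WT against delta. In H1093K against WT 5.88% of Zfp probe sets were called, where 8.03% of all were. The share of all probe sets that passed both tests is not given here, so the 6 do not set Zfp genes apart. Both responses are measured from the same delta arrays, which cancel in the difference. The WT arrays enter both tests, so a probe set that reads high on them by chance is favoured in each, and the limit to probe sets called in WT against delta adds no support. The response to H1093K minus the response to WT, on the log2 scale, was -1.43 for Zfp503 on 1423835_at and -0.95 on 1423836_at. It was -1.17 for Zfp521. For Zfp622 it was -0.95 on 1425030_at and -0.56 on 1438000_x_at. For Zfp281 on 1452045_at it was -0.43. In each of the 6, both H1093K arrays lay under both WT arrays, which was also a condition for naming them in that comparison. Ehmt2 was lower in H1093K as well (-0.43), and its part in these differences was not tested.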

How the results depend on the processing

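No named difference changed direction under any alternative run, and of the medians only that of K165A against WT did, from 0.02 to -0.00173 without K165A 2. For 42 named differences, 590 settings kept the call and 85 lost it. Zfp444 in K165A against delta lost it in 11 of 16 settings, Zfp358 in H1093K against WT in 9 of 16 and Zfp110 in WT against delta in 8 of 16, whereas Zfp503, apart from 1423836_at in H1093K against WT, lost none. Counts of Zfp calls moved by over 1.5 times as follows. Without a level filter, with 227 Zfp probe sets tested, WT against delta had 8 calls and the test across 5 groups 27. Over all probe sets these tests called 1458 and 5058, against 1616 and 4915 in the main run. The filter at the 60th percentile left 58 Zfp probe sets. K165A against delta then had 4 calls, H1093K against WT 5 and the arrays labelled deleted against delta 21. The test across 4 groups had 7 and that across 5 groups 24. Over all probe sets the counts, in the same order, were 1250, 865, 3379, 1254 and 3798. The main run had 136 Zfp probe sets, so a lower count among 58 is not by itself a lower share called. With the replicate block the pairing gave 24 calls for WT against delta, 22 for K165A against delta, 3 for H1093K against delta, 16 for H1093K against WT, 28 across 4 groups and 65 across 5 groups. Without both arrays labelled deleted, WT against delta had 8 calls. The cause of these shifts was not tested. Leaving out 1 array at a time gave 6 to 15 calls for WT against delta, 6 to 11 for K165A, 0 to 0 for H1093K, 4 to 8 for H1093K against WT, 16 to 35 for the arrays labelled deleted, 6 to 10 across 4 groups (7 without WT 1, 6 without WT 2) and 17 to 34 across 5 groups (17 without deleted 1, 19 without deleted 2, 24 without WT 1, 27 without WT 2). A group left with 1 array is assumed to vary like the others. The shares of all probe sets called with an array left out are not given here. K165A against WT had 0 Zfp calls in all alternatives run. Precision followed brightness, with a median standard error of 0.187 for members under a signal of 200 and 0.113 for those over 500.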
